A study of Mus musculus with 2 samples.

Results

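In mouse mammary epithelial cells, 442 stretches of open chromatin that were called as 1 unbroken peak with vehicle were called as 2 or more separate peaks after 2 h of TGFβ1. They were found by collapsing identical rows of each deposited peak list to distinct intervals and taking every vehicle interval that overlapped at least 2 distinct TGFβ 2 h intervals by 1 bp or more each. The vehicle list held 17784 distinct intervals, so the split intervals were 2.49% of it (95% interval 2.27 to 2.72). The count depends on how the lists are cut, and was 180 when intervals closer than 100 bp were first joined, 31 when those closer than 1000 bp were, 286 without intervals under 150 bp and 92 among intervals with at least the median score of their list. Without collapsing, the split intervals filled 2538 rows of the vehicle list. Because the peak calls of both lists chose these intervals, their widths, scores and numbers of pieces are given as a description. The annotation and the base sequence under the pieces and gaps were not used to choose them.

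The measurements were DNaseI-seq peak calls from NMuMG cells, an established mouse line of mammary gland epithelium. Cells were held for 6 h in medium lacking serum and insulin and then received TGFβ1 at 5 ng/ml, or only the acid and albumin solution it was dissolved in, for a further 2 h. The labels gave no genetic change in either group. There was 1 peak list per condition, so no difference below could be tested against replicates. Every interval printed after a value covers the counting of peaks, gaps, bases or matches and nothing else.

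DNaseI cuts DNA where nucleosomes are missing or loosely held, and active promoters and enhancers therefore stand out as hypersensitive sites. A nucleosome or another bound complex inside a broad open stretch can shield its DNA from the enzyme. A peak caller writes an interval where the signal passes its threshold and can bridge short stretches below it, so whether a broad site is written as 1 interval or several rests on how low the signal falls inside it and over what length. TGFβ1 acts through receptor serine/threonine kinases and Smad transcription factors, and AP-1 is a frequent partner of Smads at enhancers.

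In the text a piece is a TGFβ 2 h interval that overlaps a split vehicle interval, and a gap is the run of bases between neighbouring pieces. Of the 442 split intervals, 430 had 2 pieces, 12 had 3 pieces and none had 4. This gave 896 pieces and 454 gaps. Examples of gaps are printed here because the results turn on what lies in them. They come from vehicle intervals at the score ceiling and overlap no annotated exon. Sequences are from the forward strand of NCBIM37, the assembly also called mm9, 5′ to 3′, with the gap in capitals and 50 bp of each piece beside it in lower case. Each is named by the gene with the nearest transcript start.
Spag9, chr11:93856820-93857017: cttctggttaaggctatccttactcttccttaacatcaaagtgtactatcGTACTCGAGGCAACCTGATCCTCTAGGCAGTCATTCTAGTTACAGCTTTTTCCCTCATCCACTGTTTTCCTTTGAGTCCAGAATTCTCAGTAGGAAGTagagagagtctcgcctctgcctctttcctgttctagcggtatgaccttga
Col1a1, chr11:94798558-94798736: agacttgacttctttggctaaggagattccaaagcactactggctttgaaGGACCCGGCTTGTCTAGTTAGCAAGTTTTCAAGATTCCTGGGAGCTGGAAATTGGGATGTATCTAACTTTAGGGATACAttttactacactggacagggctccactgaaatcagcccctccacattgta
Ddx3x, chrX:12858548-12858745: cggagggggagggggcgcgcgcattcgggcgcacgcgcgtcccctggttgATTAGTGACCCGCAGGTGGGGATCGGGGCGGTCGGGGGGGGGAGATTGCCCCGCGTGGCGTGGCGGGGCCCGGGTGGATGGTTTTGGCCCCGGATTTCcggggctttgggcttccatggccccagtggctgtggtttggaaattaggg
Elf2, chr3:51080788-51080974: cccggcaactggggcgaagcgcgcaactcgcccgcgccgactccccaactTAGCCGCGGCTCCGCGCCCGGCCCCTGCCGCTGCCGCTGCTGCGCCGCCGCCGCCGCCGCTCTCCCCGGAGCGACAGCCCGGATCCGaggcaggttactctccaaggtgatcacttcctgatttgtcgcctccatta
Slc43a2, chr11:75344882-75345068: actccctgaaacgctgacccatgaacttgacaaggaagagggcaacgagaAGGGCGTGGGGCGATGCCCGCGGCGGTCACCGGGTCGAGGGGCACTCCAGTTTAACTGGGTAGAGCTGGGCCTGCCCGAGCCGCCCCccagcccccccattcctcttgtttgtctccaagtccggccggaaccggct
Bivm, chr1:44176556-44176752: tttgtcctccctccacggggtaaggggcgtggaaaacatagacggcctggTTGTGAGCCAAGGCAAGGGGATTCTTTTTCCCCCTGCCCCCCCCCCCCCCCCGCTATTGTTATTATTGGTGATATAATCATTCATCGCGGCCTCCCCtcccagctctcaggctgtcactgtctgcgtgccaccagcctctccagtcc
The Spag9 and Col1a1 gaps were low in GC, at 44.9% and 44.3%, while the Slc43a2, Ddx3x and Elf2 gaps were GC-rich, at 73.6%, 71.4% and 83.9%. Their flanks, the 100 bases of the pieces shown beside them, held 45.0%, 45.0%, 58.0%, 70.0% and 61.0% GC in the same order. The Bivm gap carried a long run of C and had 55.7% GC, against 62.0% in its flanks. Single gaps thus lay above, near or below their flanks in base composition.

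The opposite event was rarer. Only 120 of the 22600 distinct TGFβ 2 h intervals, 0.531%, overlapped 2 or more vehicle intervals, and these reverse splits held 121 gaps. That share also counts TGFβ 2 h intervals with no vehicle counterpart, which could not be reverse splits. Shares among intervals with a counterpart are given by width below. Split vehicle intervals outnumbered them by a ratio of 3.68 (95% interval 3.0 to 4.55). The direction was seen on each of the 20 chromosomes, with the highest ratio on chromosome 3, where 29 splits stood against 1 reverse split, and the lowest on chromosome 8, with 21 against 11. Per chromosome, the split share of the vehicle intervals that had any TGFβ 2 h counterpart ran from 1.74% on chromosome 19 to 4.20% on chromosome 17. Only 5 split intervals had a piece that was itself a reverse split. With lists of equal length, made by keeping the highest TGFβ 2 h scores, the ratio was 2.86, and with both lists limited to scores from their median upwards it was 5.75. Per the study's reporting summary the vehicle library was the more deeply sequenced, and with 1 list per condition depth and treatment cannot be told apart.

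Split vehicle intervals were wide. Their median width was 1087 bp (95% interval 1044 to 1151, n = 442), with the narrowest at 302 bp and the widest at 2443 bp. The 14214 vehicle intervals that met exactly 1 TGFβ 2 h interval had a median of 823 bp, and the 3128 that met none had a median of 471.5 bp. The 120 reverse splits were also wide, with a median of 995.5 bp. Among vehicle intervals with a counterpart, the split share was 0.807% below 500 bp (14 of 1734), 3.49% at 1000 to 1249 bp (94 of 2696), 6.51% at 1250 to 1499 bp (73 of 1121) and 19.9% at 1500 bp or more (92 of 463, 95% interval 16.5 to 23.7). The reverse share was lower in every width class, reaching 8.59% in the widest (11 of 128). These shares rest on the same overlaps that chose the intervals, and the widest class has no upper limit, so they describe the lists and the part of width was not tested.

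**Figure D1:**
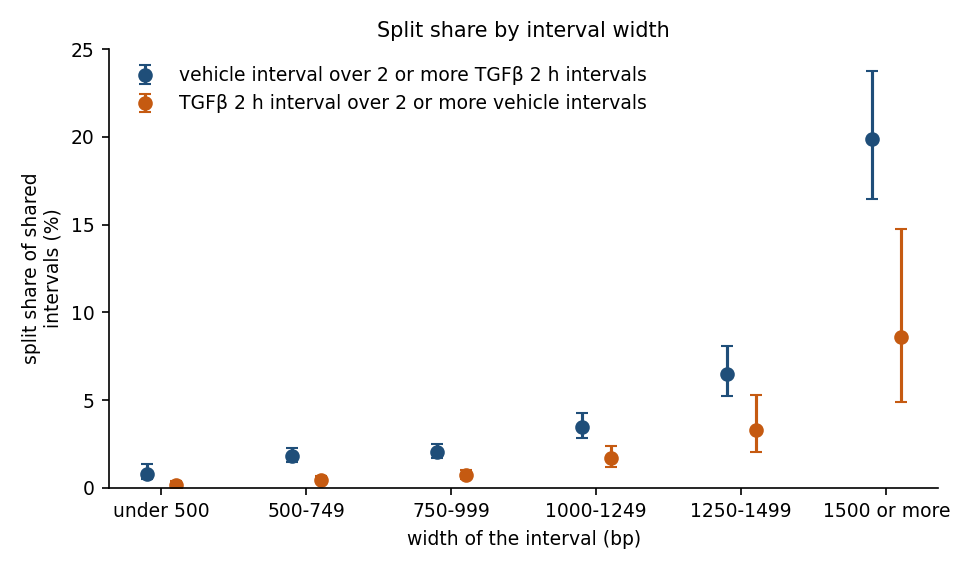
Share of shared intervals that were split (y axis, %) in 6 classes of interval width (x axis, bp), for vehicle intervals split after TGFβ (blue) and TGFβ 2 h intervals split in vehicle (orange), with Wilson 95% intervals as bars. The blue points rise from 0.807% to 19.9% and lie above the orange points in each class.

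The score in the lists is a whole number with a ceiling of 1000. Of the split intervals 285 stood at the ceiling (64.5%, 95% interval 59.9 to 68.8), beside 63.5% of the unsplit shared intervals. At like width the order was different. At 750 to 999 bp, 56.3% of split intervals were at the ceiling (46.3 to 65.7) against 72.6% of unsplit ones (71.3 to 73.9), and at 1250 to 1499 bp the shares were 71.2% (60.0 to 80.3) and 86.8% (84.6 to 88.7). Among shared vehicle intervals of 1000 bp or more, 5.53% of those at the ceiling were split (200 of 3617) and 8.90% of those below it (59 of 663). Of the 285 ceiling intervals, 230 had at least 1 piece at the ceiling of the TGFβ 2 h list and 68 had every piece there. Whether a score means the same in both lists is not given in the sources used here, so scores of a vehicle interval and of its pieces are set side by side as listed and not as a change. Over all pieces 341 of 896 were at the ceiling (38.1%).

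The lists repeat an interval over several rows, and the files do not say what a row stands for. A split vehicle interval carried a median of 5 rows and its pieces together also 5. The vehicle interval had more rows than its pieces in 244 cases, as many in 103 and fewer in 95. Unsplit shared intervals had a median of 4 rows, and rows per kb were close, at 5.14 for split and 4.99 for unsplit intervals.

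Most of a split interval was still covered after TGFβ. The pieces covered a median of 81.0% of the vehicle interval, from 20.8% to 94.8%. Over all split intervals 78.1% of bases lay in pieces, 11.4% in gaps and 10.5% at the outer edges. The pieces were unequal in most cases. The narrowest piece of an interval had a median of 223 bp and the widest 655 bp, and in 187 of the 442 intervals the narrowest was at least 0.5 times as wide as the widest. In 159 intervals (36.0%) the narrowest piece was under 150 bp wide. The 164 pieces under 150 bp made up 30.2% of the 543 TGFβ 2 h intervals of that size, which were 2.40% of the list. Some intervals lay close to the limit of the definition. Just inside it, a second TGFβ 2 h interval entered the Clptm1 interval (chr7:20249785-20251053) by 2 bp and an interval 28875 bp from the nearest Baiap2l1 start (chr5:145078651-145079607) by 4 bp. Just outside it, the next TGFβ 2 h interval began directly after the end of an unsplit interval near Iqgap1 (chr7:87907201-87907787) and 8 bp away from one near E330012B07Rik (chr6:147148380-147148820). In all, 25 split intervals rested on an overlap of under 50 bp, and 19 unsplit intervals had a further TGFβ 2 h interval within 50 bp of an end.

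The gaps were narrow and of similar size. The median gap was 89 bp wide (95% interval 87 to 91, n = 454), the narrowest 74 bp and the widest 755 bp. Of the gaps 309 were 100 bp or less (68.1%), 389 were 150 bp or less (85.7%) and 29 were over 300 bp. The gaps of the reverse splits had a median of 85 bp, from 75 to 392 bp. These lower limits equal the smallest distance between any neighbouring intervals of the same list, 74 bp for TGFβ 2 h and 75 bp for vehicle, and the narrowest interval in either list was 73 bp. The bulk of the gaps therefore lay just above the closest spacing the lists contain.

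**Figure D2:**
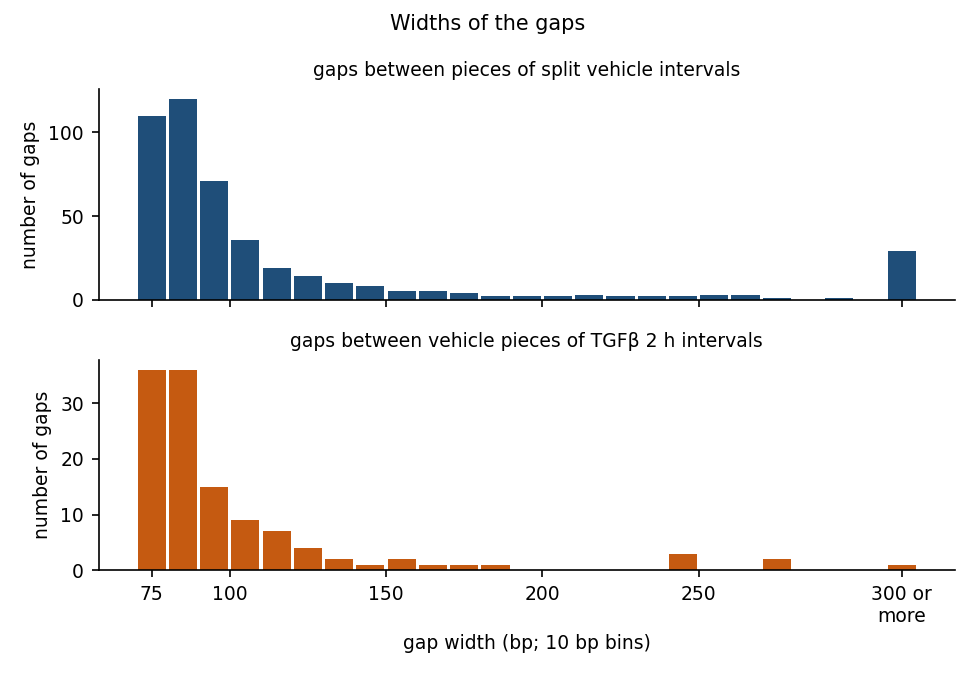
Number of gaps (y axis) by gap width (x axis, 10 bp bins, all gaps of 300 bp or more in the last bar) for split vehicle intervals (top) and reverse splits (bottom). Both start at about 75 bp, fall off steeply, and 29 gaps of split vehicle intervals lie above 300 bp.

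Close neighbours were themselves more frequent in the TGFβ 2 h list. It held 929 neighbouring pairs at most 300 bp apart (4.11%), against 486 in the vehicle list (2.74%). A single vehicle interval spanned 425 of the 929 pairs (45.7%). In 266 pairs neither neighbour had a vehicle interval, in 152 only 1 had, and in 86 each had its own. Of the 486 close vehicle pairs, a single TGFβ 2 h interval spanned 120 (24.7%). Within the split intervals the gap midpoint lay at a median of 50.5% of the interval's width, and 68.1% of midpoints fell between 25% and 75% of it. The definition asks for a piece on either side of a gap, which keeps gaps off the ends. These values are therefore a description only.

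It was then asked where the gaps lay relative to transcript starts, taken from every transcript of GENCODE M1. Of the split intervals 303 were within 1000 bp of a start (68.6%, 95% interval 64.1 to 72.7), and 284 held one. The share was 64.7% for unsplit shared intervals, 67.5% for reverse splits and 23.9% for vehicle-only intervals. Since wide intervals are more often promoters, the comparison was repeated by width. At 750 to 999 bp, 55.2% of split intervals were near a start (45.3 to 64.8) against 72.5% of unsplit ones (71.1 to 73.7). At 1250 to 1499 bp the shares were 76.7% (65.8 to 84.9) and 89.8% (87.8 to 91.5), and at 1500 bp or more they were 90.2% and 91.6%. The slight excess of promoters among all split intervals was thus not seen at like width, where split intervals were as often or less often near a start. Promoter members were wider, with a median of 1205 bp against 827 bp for the others, while their gaps had medians of 90 and 89 bp.

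Transcript starts rarely fell in a gap. The split intervals held 873 distinct start positions. Of these 821 lay in a piece (94.0%), 34 at an outer edge (3.89%) and 18 in a gap (2.06%, 95% interval 1.31 to 3.24). Gaps made up 10.7% of the bases of the same intervals. Between 25% and 75% of the interval's width lay 65.6% of the starts and 68.1% of the gap midpoints, and the part of position inside the interval in this placement was not tested. Starts of 1 gene often lie close together and are not independent. Of the starts in pieces, 648 of 821 were in the widest piece (78.9%), which made up 70.7% of the piece bases. The reverse splits had 10 of 234 starts in a gap (4.27%), with 9.01% of their bases in gaps.

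Along the direction of transcription, and with all gaps counted, the gap share was lowest just before the start. In the 100 bp upstream of a start 3.39% of the bases of split intervals lay in a gap, and in the 200 bp upstream 6.03%. The share was 9.16% over the first 200 bp downstream, 16.7% from 200 to 500 bp and 16.1% from 500 to 1000 bp, and upstream it was 12.5% from -500 to -200 bp. The highest single bins were those at 300 to 400 bp, with 20.8%, and at 400 to 500 bp, with 21.0%. Gaps over 100 bp carried much of the downstream rise. With gaps of 100 bp or less alone, a choice made after the values were seen, the share was 1.72% in the last 100 bp before the start, 5.53% over the first 200 bp, 5.83% from 200 to 500 bp and 7.31% from -500 to -200 bp. Among these narrow gaps the last 100 bp before the start held a smaller share than the bins beside it, but the shares from -800 to -700 bp, at 0.703%, from 800 to 900 bp, at 0.283%, and from 900 to 1000 bp, at 1.20%, were lower still. In the 200 bp on either side of the start their share was 3.72% upstream and 5.53% downstream, so it was higher downstream there, as with all gaps, but not from 200 to 500 bp. In the reverse splits the share was 7.50% in the 200 bp before a start, 6.90% in the 200 bp after it and 16.3% from 200 to 500 bp downstream.

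**Figure D3:**
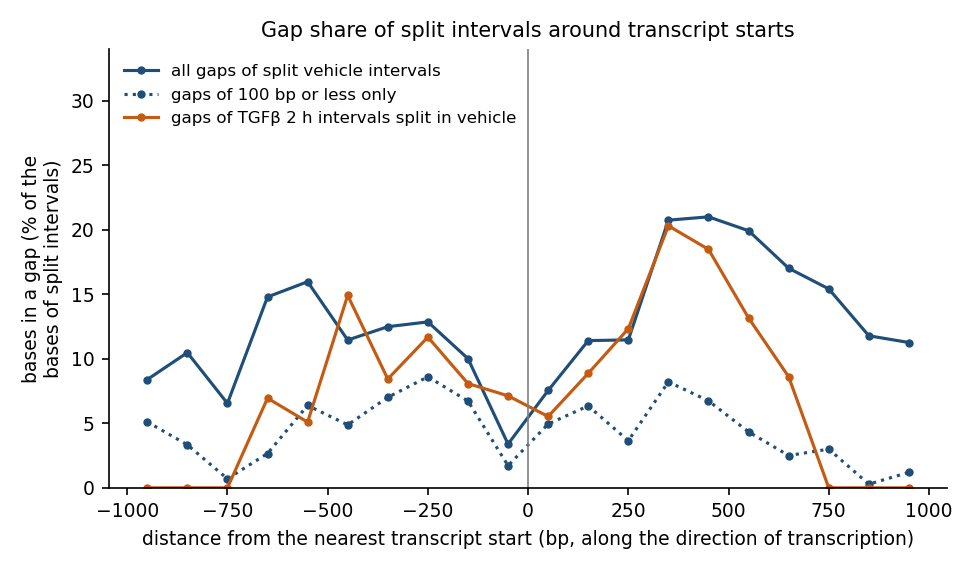
Percentage of the bases of split intervals that lie in a gap (y axis) against the distance to the nearest transcript start along the direction of transcription (x axis, bp, 100 bp bins), for all gaps of split vehicle intervals (blue), for gaps of 100 bp or less (dotted) and for reverse splits (orange). The blue line drops to 3.39% just before the start and reaches 21.0% at 400 to 500 bp downstream, and the outer orange bins rest on few intervals.

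In total 309 gaps lay within 1000 bp of a start (68.1%, 95% interval 63.6 to 72.2), at a median distance of 200 bp. Of these, 186 had their midpoint downstream of the nearest start (60.2%, 54.6 to 65.5) and 123 upstream, at median distances of 288 and 248 bp. The downstream share was 70.0% for gaps over 100 bp (60.4 to 78.1, n = 100) and 55.5% for those of 100 bp or less (48.7 to 62.1, n = 209). For split intervals of at least the median score it was 53.9%. The other 145 gaps lay at a median of 13825 bp from a start.

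First exons overlapped 119 gaps (26.2%, 95% interval 22.4 to 30.4), all of them within 1000 bp of a start. Among these gaps, 83 lay wholly inside a first exon, 37 held the end of a spliced first exon and 17 held a start. First-exon bases in split intervals were in a gap in 10.1% of cases, close to the 11.4% of all their bases. By midpoint, 142 gaps lay in a first intron, 95 in a first exon, 32 in a later intron, 14 in another exon and 171 outside genes. Near starts the first intron led, with 118 of 309. Divergent start pairs, in which a minus-strand and a plus-strand start lie head to head within 1000 bp, occurred in 58 split intervals (13.1%) and in 8.59% of unsplit shared ones, over all widths, and the part of the greater width of split intervals in this was not tested. In those 58 intervals 22 gaps lay between the starts and 38 outside them.

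The 17 gaps that held a start were exceptions to this placement. Those at Yap1, the transcriptional coactivator of the Hippo pathway, and Rreb1, a zinc-finger factor that works with Smads, were wide, at 697 and 438 bp. The gap at Wdr26 was 251 bp. The gaps at Homer1, a synaptic scaffold protein, and at Ccnb1, the mitotic cyclin B1, were 76 and 74 bp, close to the narrowest. Myc, the growth-promoting transcription factor, had a start in a gap of 112 bp. Atp6v1a, a subunit of the proton pump of acidic organelles, had 1 start in each of its gaps of 74 and 115 bp. Yap1, Rreb1, Wdr26, Homer1, Ccnb1 and Atp6v1a were picked from the 17 after their values were seen, except that Yap1 also has one of the 5 widest gaps. In 16 of the 17 the vehicle interval held further starts outside the gap.

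The widest split intervals lay at promoters. The widest, chr11:77989789-77992231, was 2443 bp long and lay within 1000 bp of starts of Nek8, a kinase of the primary cilium, and Tlcd1. After TGFβ it was 2 pieces of 915 and 902 bp, both at the ceiling, with a gap of 617 bp. Spag9, which encodes a scaffold for JNK and p38 kinases, had a vehicle interval of 2232 bp at chr11:93856136-93858367 and pieces of 465 and 1234 bp, with scores of 665 and 1000. At Zfp91 a gap of 74 bp lay in the first exon, its midpoint 920 bp downstream of the start, and set off a piece of 406 bp from one of 1651 bp. Near starts of 5031425E22Rik and Mll5, the second a chromatin regulator with a SET domain, pieces of 1002 and 1037 bp at the ceiling flanked a gap of 104 bp.

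The widest gaps lay mostly in first introns. Those of Anp32b, a histone chaperone, Lmnb1, which encodes lamin B1, Ap2a2, an adaptor subunit of clathrin-coated pits, and Stra13 were 755, 730, 703 and 702 bp wide, and that of Yap1 lay with its midpoint in a first exon. At Lmnb1 the vehicle interval scored 1000 and the pieces scored 1000 and 716. At Anp32b the upstream piece, 1205 bp wide, extended well beyond the vehicle interval and overlapped it by 122 bp. The 29 gaps over 300 bp belonged to wide intervals, with a median of 1550 bp, and 24 of them lay within 1000 bp of a start (82.8%, 65.5 to 92.4).

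**Figure D4:**
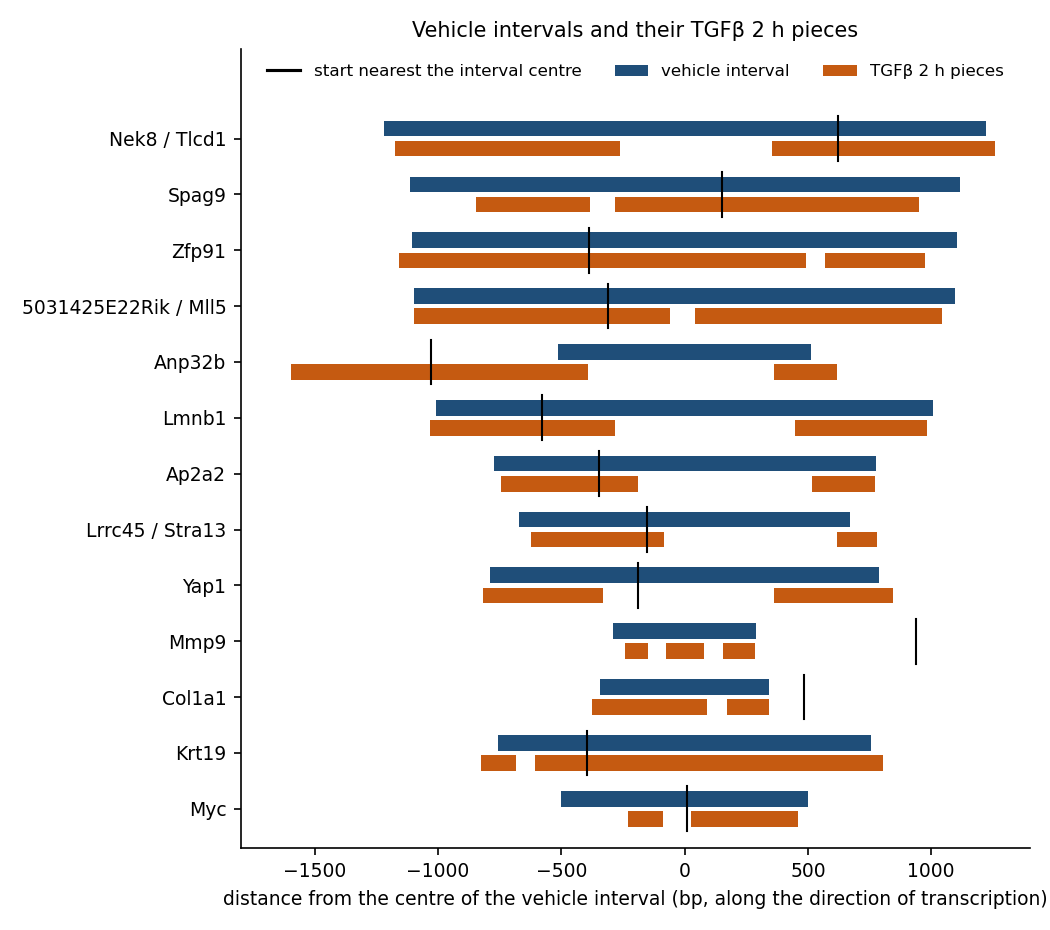
Vehicle intervals (blue) and their TGFβ 2 h pieces (orange) at the 4 widest split intervals, the 5 with the widest gap and the 4 near listed genes, drawn to scale against the distance from the centre of the vehicle interval (x axis, bp, along the direction of transcription of the nearest gene), with the start nearest the centre as a black line. At Yap1 and Myc the line falls in the gap, and at most other genes it falls in a piece.

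The split intervals were then read against genes of the TGFβ response. Of 10170 protein-coding genes with a vehicle interval within 1000 bp of a start, 349 had a split one (3.43%). In 8 lists of 110 genes for TGFβ signalling, epithelial-mesenchymal transition and cell growth, 87 had a vehicle interval and 4 of them a split one (4.60%), near that background. The list of 13 AP-1 and related genes with a vehicle interval had none, nor had the 10 receptors and Smads, the 11 genes of negative feedback, the 9 transcription factors of epithelial-mesenchymal transition or the 11 Kruppel-like factors. The 4 were Mmp9, Col1a1, Krt19 and Myc. At Mmp9, the gelatinase that degrades basement membrane, a vehicle interval of 579 bp, centred 940 bp upstream of the nearest start, became 3 pieces of 91, 152 and 129 bp with gaps of 76 and 77 bp. The vehicle score was 680 and the pieces scored 642, 642 and 643. The interval held no start, the nearest being 651 bp away, and both gap midpoints lay in exons that were not first exons. At Col1a1, a chain of type I collagen, a gap of 79 bp lay 353 bp upstream of the nearest start and separated a piece of 467 bp at the ceiling from one of 172 bp with a score of 618. The midpoint of that gap lay in a first intron, and the interval held no start, the nearest being 142 bp away. At Krt19, an epithelial keratin, a piece of 140 bp was set off from one of 1411 bp by a gap of 78 bp, 251 bp upstream. At Myc the interval of 1004 bp was at the ceiling of the vehicle list, and its pieces of 141 and 434 bp scored 672 and 809 in the other list.

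Intervals in 3 pieces were chosen by name after their values were seen. Of the 12, 11 lay near annotated starts, among them Dek, a chromatin protein, Basp1, Slc43a2, an amino acid transporter, Fem1a and the Atp6v1a and Naa50 pair. At Dek the centre piece of 793 bp at the ceiling was flanked by pieces of 73 and 89 bp. At Slc43a2 the pieces of 537, 236 and 795 bp scored 728, 681 and 1000, so the one over the start was highest.

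Gaps were poorer in GC than the pieces around them. The median GC content was 56.1% in gaps (95% interval 53.9 to 57.9) and 61.2% in pieces (60.3 to 61.8). Within an interval the gap differed from its pieces by a median of -2.82 percentage points (-4.02 to -1.86), and it was lower in 279 of 454 cases (61.5%, 56.9 to 65.8). Against the 100 bp of each piece next to the gap the difference was -1.58 points (-2.41 to -0.778). It was -2.73 points near starts and -3.42 points elsewhere. Where pieces held under 55% GC the gap was lower in 81 of 117 cases (69.2%), and where they held 65% or more it was lower in 73 of 142 (51.4%), with a median difference of -0.417 points (-3.15 to 2.57). In that most GC-rich class the interval held both 0 and the difference over all gaps, and a difference between the classes was not tested. In the reverse splits the difference from the pieces was -3.48 points (-5.41 to -1.76), so it was not limited to one direction of splitting. Whole split intervals had 59.9% GC and unsplit shared ones 59.2%.

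**Figure D5:**
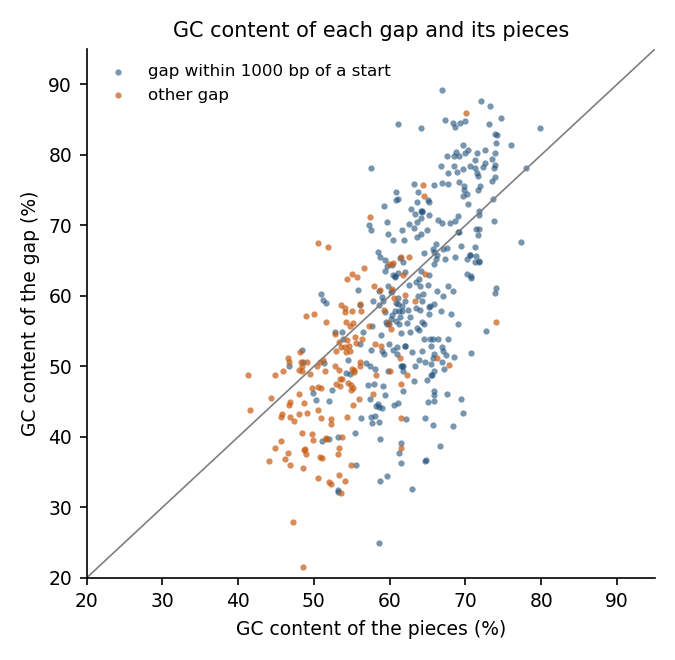
GC content of each gap (y axis, %) against that of its pieces (x axis, %) for 309 gaps within 1000 bp of a start (blue) and 145 others (orange), with equality as a grey line. Of the points 279 of 454 lie below the line, with a wide scatter on both sides.

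CpG dinucleotides, which mark most mouse promoters as CpG islands, followed the same order. The observed over expected ratio had a median of 0.565 in gaps and 0.720 in pieces, and the difference within an interval was -0.0616 (95% interval -0.0887 to -0.0258). Near starts it was -0.0808 (-0.116 to -0.0306), and for other gaps it was -0.0208 with an interval that spanned 0 (-0.0664 to 0.0232). Against the 100 bp of each piece next to the gap the difference was -0.0402 (-0.0693 to -0.00382). There was no CpG at all in 40 gaps (8.81%). No such share was taken for stretches of like length in pieces, and the part of the short gap length in these values was not tested.

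Short sequence matches of transcription factors were fewer in gaps than in pieces for most of the strings searched. The 10 strings searched on both strands were TGACTCA (AP-1), TGACGTCA (CRE), CAGACA (SMAD), CCGGAAG (ETS), CCAAT (NF-Y), GGGCGG (SP/KLF), AAGATGGCG (YY1), TATAAA (the TATA box) and a string each for NRF1, of 10 letters, and CTCF, of 11, both with free positions and given by name alone. Matches of different strings could overlap. Density was lower in gaps than in pieces for 9 of the 10. The AP-1 string occurred 3 times in 57192 gap bases and 119 times in 390342 piece bases, 0.0525 and 0.305 per kb, a ratio of 0.172 (95% interval 0.0350 to 0.515). The ETS string occurred 5 and 128 times, a ratio of 0.267 (0.0851 to 0.639). The ratio was 0.631 for SP/KLF (0.522 to 0.756), 0.606 for NF-Y (0.429 to 0.835) and 0.591 for CTCF (0.435 to 0.787). The YY1 string was at 0 in gaps and 36 in pieces, with an upper bound on the ratio of 0.736. For SMAD the ratio was 0.826 (0.561 to 1.18), for NRF1 0.515 (0.217 to 1.05) and for CRE 0 with an upper bound of 2.06, intervals that hold equality. The TATA string had a ratio of 1.23 (0.661 to 2.15). Against the 100 bp of each piece next to the gap, equality came inside the interval for AP-1, at 0.292 (0.0546 to 1.02), for CTCF, at 0.743 (0.522 to 1.05), and for NF-Y, at 0.954 (0.631 to 1.43). SP/KLF stood at 0.795 (0.638 to 0.987) in that comparison and ETS at 0.260 (0.0787 to 0.677). In windows of 150 bp, the AP-1 string was found in 1.54% of windows centred on gaps, in 5.47% of those centred on pieces, in 6.98% of those centred on all vehicle intervals and in 11.8% of those centred on all TGFβ 2 h intervals, the list the pieces come from. In unsplit shared vehicle intervals the AP-1 string had 0.882 matches per kb away from starts and 0.132 near them. The windows were not divided by distance from a start, and its part in these shares was not tested. For gaps, pieces and all vehicle intervals, in that order, the shares were 1.10%, 4.02% and 5.99% for ETS, 22.5%, 31.5% and 30.8% for SP/KLF, 13.4%, 18.2% and 18.2% for CTCF, and 11.2%, 16.0% and 15.8% for NF-Y. For CRE the windows on gaps and on pieces were alike, at 0.220% and 0.223%, with 0.990% in all vehicle intervals. The shares were 8.81%, 10.3% and 10.8% for SMAD, 1.76%, 2.46% and 3.83% for NRF1, and 3.96%, 3.01% and 2.59% for the TATA string. Windows on all TGFβ 2 h intervals held the SMAD string in 14.3% of cases, ETS in 4.97%, SP/KLF in 26.0%, CTCF in 16.7%, NF-Y in 15.8%, NRF1 in 3.38%, the TATA string in 3.01%, YY1 in 0.965% and CRE in 0.827%. The YY1 string was in 1.45% of piece windows, in 1.00% of vehicle windows and in 0 of 454 gap windows, which allows up to 0.839% by the Wilson interval.

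The AP-1 matches of the 3 gaps that held one are printed below in capitals, because they are the exceptions. Each stands in up to 60 bp of its gap on either side, which is part of the gap and nowhere reaches into a piece. The string reads the same way as TGACTCA or as its reverse complement TGAGTCA.
Pex5, chr6:124365589-124365712: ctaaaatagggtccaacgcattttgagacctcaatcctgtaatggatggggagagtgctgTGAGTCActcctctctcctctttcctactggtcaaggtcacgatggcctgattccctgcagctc
Gm13431, chr2:36069380-36069506: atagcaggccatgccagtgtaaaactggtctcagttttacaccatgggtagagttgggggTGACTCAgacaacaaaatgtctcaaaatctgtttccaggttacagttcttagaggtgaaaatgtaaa
AC164303.1, chr14:26645528-26645597: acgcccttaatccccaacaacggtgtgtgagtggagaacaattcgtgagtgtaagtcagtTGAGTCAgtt
The Pex5 gap was 171 bp wide, and its nearer edge lay 457 bp from the nearest start. The other gaps, near Gm13431 and AC164303.1, were 501 and 92 bp wide, with the nearer edge 2662 and 1994 bp from a start. For contrast, in the next pair the AP-1 match lay in a piece within 100 bp of a gap of 100 bp or less, in intervals over 1000 bp from a start. Each is shown from the gap with 20 bp on its outer side through to 20 bp past the match.
Gm16176, chr10:87342743-87342939: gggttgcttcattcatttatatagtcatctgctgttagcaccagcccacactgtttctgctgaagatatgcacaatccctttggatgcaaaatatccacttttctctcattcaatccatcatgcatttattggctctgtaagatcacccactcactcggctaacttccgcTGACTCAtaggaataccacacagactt
Colec10, chr15:54194414-54194559: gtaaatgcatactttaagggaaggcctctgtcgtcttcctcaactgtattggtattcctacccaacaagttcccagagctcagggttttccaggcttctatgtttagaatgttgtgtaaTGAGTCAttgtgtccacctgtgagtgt
In the Gm16176 interval the gap spanned chr10:87342763-87342842 and the match began 70 bp beyond it. In the Colec10 interval the gap spanned chr15:54194434-54194523 and the match began 9 bp beyond it. In both, the match lay in the open piece and not in the gap.

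The density of motif matches over whole intervals set the split ones apart in a few cases. Away from starts, the 139 split intervals had 0.620 AP-1 matches per kb and the 5013 unsplit shared ones 0.882, a ratio of 0.703 (95% interval 0.555 to 0.880). For SMAD the ratio was 1.06 (0.899 to 1.23). Near starts the AP-1 densities were 0.129 and 0.132 per kb, while ETS stood at a ratio of 0.727 (0.604 to 0.869), NRF1 at 0.787 (0.643 to 0.954), CRE at 0.524 (0.269 to 0.923) and the TATA string at 1.43 (1.11 to 1.83). For split and unsplit intervals near starts, the share with a match was 31.4% and 32.6% for ETS and 24.1% and 24.2% for NRF1. It was 3.96% and 5.40% for CRE, and 17.8% and 10.7% for the TATA string. Away from starts it was 39.6% and 44.7% for AP-1. The split intervals were the wider ones, as given above, and the part of width in these densities and shares was not tested.

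Promoter intervals at cell type markers were also counted. Of 12 epithelial markers 6 had a vehicle interval and 5 a TGFβ 2 h interval within 1000 bp of a start, and none of 5 leukocyte, 5 endothelial and 4 adipocyte markers had either. Epcam, Krt7, Cldn3, Cldn4, Cldn7 and Esrp1 had an interval in neither list, and Grhl2 only in the vehicle list. The share over all genes was not taken, so these counts do not establish the cell type. Before collapsing there were 70449 vehicle rows and 68542 rows for TGFβ 2 h. Read depth is not part of the lists.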

How the data were processed

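DNaseI-seq peak lists of 2 samples, grouped by their titles, were analysed. Per the methods, the authors aligned reads to mm9 and ran the pipeline of their ATAC-seq data with DNaseI options not given in the sources used here. Their processing notes name MACS2 2.1.2 and deepTools. The deposited score is a whole-number score from 540 to a ceiling of 1000 and its thresholds were set within each list. Whether it has the same scale in both is not given in the sources used here. The lists give no read depth, so the precision of a single interval is unknown, and intervals cover counting error only. Identical intervals were collapsed and overlaps counted from 1 bp. Sequence was NCBIM37 and annotation GENCODE M1 (95414 transcripts). Shares have Wilson, ratios exact binomial and medians order-statistic 95% intervals, with no p-values. The overlap code was tested on simulated data. Python 3.11.15, pandas 2.3.3, scipy 1.17.1 and pysam 0.24.0 were used.

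Regions named were the 5 widest split intervals, the 5 with the widest gap, those within 1000 bp of a start of a listed gene, and the 2 nearest to the rule's threshold on either side, of which 1 is not reported here. Gaps to print were taken first from the widest, widest-gap and listed-gene regions, then by descending width of the split interval. The gaps so chosen at Stk35 and D930015E06Rik are not reported here. Members, lists and rules were chosen with earlier results of these data known. Alternatives changed the overlap, small intervals, score, list length, chromosome X, joining, start set, window and sequence background.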

Additional observations from a re-analysis of the deposited data

How the results depend on the processing

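The number of split vehicle intervals was 286 without intervals under 150 bp, 92 among intervals scoring no lower than their list's median, 180 and 31 after joining intervals closer than 100 and 1000 bp, and 2538 when every deposited row was counted. The median width was 1255 bp without intervals under 150 bp and 1188 bp under that score limit. The median gap was 94 bp without intervals under 150 bp, and 143 and 1134 bp after joining at 100 and 1000 bp, which removes narrower gaps by construction. The share of gaps near a start was 82.6% under the score limit and 61.0% for a window of 500 bp. The ratio of splits to reverse splits was 5.75 under the score limit, 2.86 with lists of equal length and 10.3 after joining at 1000 bp, where 31 splits met 3 reverse splits. The downstream share was 53.9% under the score limit. The GC difference was -1.58 points against the adjacent 100 bp, and the CpG difference was -0.0208 for gaps over 1000 bp from a start. Another 44 recomputed values for these results stayed within the counting interval of the reported value or within 1.5 times its count. Of 10 motif strings, 9 were less dense in gaps than in pieces, and for gaps over 1000 bp from a start 7 of 9 were, since YY1 gave no ratio there. No other ratio whose interval lay clear of equality changed direction under the alternatives run. Among those whose interval held it, NRF1 went from 0.515 to 2.02 (0.200 to 11.3) over 1000 bp from a start, and with gaps of 100 bp or less SMAD went from 0.826 to 1.14 and the TATA string from 1.23 to 0.661. Equality came inside the interval for NF-Y over 1000 bp from a start, at 0.867, and for gaps of 100 bp or less, at 0.735. It did so for ETS over 1000 bp from a start, where no gap held a match, and for YY1 in gaps of 100 bp or less, with an upper bound of 1.45. SP/KLF stayed below equality, at 0.434 over 1000 bp from a start and 0.510 for gaps of 100 bp or less. Gaps of 100 bp or less alone were an alternative chosen after seeing the data. No paired analysis was possible because there is a single list on each side. The causes of these differences were not tested, and without replicate lists no spread between cultures is known.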
